A study of Mus musculus with 18 samples.

Results

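The transcripts of the mitochondrial genome were examined in prostates (ventral with lateral lobes) of 18 male mice of the strain labelled C56NL/6N. The members were all features whose identifier starts with mt-, 35 of the 55469 features in each deposited table. They comprised 11 mRNA features, 2 rRNAs (mt-Rnr1 and mt-Rnr2) and 22 tRNAs. TRAMP, a transgene in which the probasin promoter drives the SV40 T antigens in prostate epithelium, was present in 1 copy in every mouse, controls included. WT-TRAMP mice were ELAC2+/+, KO-TRAMP mice were ELAC2-/- through a Cre recombinase driven by the probasin promoter that removes exon 8 of Elac2 in prostate epithelium, and A537T-TRAMP mice carried the A537T change on both alleles in the whole body. Each line was sampled at 10 and 30 weeks with 3 mice per group, and the lobes were taken whole, so stroma and other cells without the Cre were part of every sample. The libraries are named by the numbers 1 to 18 of the table headers. WT-TRAMP had libraries 1 to 3 at 10 weeks and 10 to 12 at 30 weeks, A537T-TRAMP had 4 to 6 and 13 to 15, and KO-TRAMP had 7 to 9 and 16 to 18.

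Mitochondrial DNA is transcribed by the RNA polymerase POLRMT into long transcripts from both strands, in which tRNAs lie between most of the mRNAs and rRNAs. The RNase P complex (TRMT10C, HSD17B10 and PRORP) cuts these precursors at the 5′ ends of tRNAs and ELAC2, the RNase Z, cuts at their 3′ ends, so that cleavage around a tRNA releases the RNA on either side. The mRNAs encode subunits of respiratory complexes I, III and IV and of ATP synthase, and the 2 rRNAs form the cores of the mitochondrial ribosome.

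The sequences below show where ELAC2 cuts. A tRNA of the same strand lay directly before 10 of the 13 mRNA and rRNA features in the annotation, at a gap of at most 3 bases, and for 6 of these no base lay in between, so that the cut at the tRNA 3′ end is also the 5′ end of the next transcript. Each line gives 20 bases of the tRNA 3′ end in capitals and the first 20 bases of the transcript in lower case, 5′ to 3′ on the coding strand of GRCm38, from the GENCODE transcript sequences (release 21).
mt-Tv to mt-Rnr2, chrM:1074-1113, plus strand: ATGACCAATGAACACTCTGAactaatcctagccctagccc
mt-Tl1 to mt-Nd1, chrM:2731-2770, plus strand: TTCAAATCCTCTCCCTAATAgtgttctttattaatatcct
mt-Tm to mt-Nd2, chrM:3894-3933, plus strand: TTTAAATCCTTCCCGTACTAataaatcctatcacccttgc
mt-Tg to mt-Nd3, chrM:9439-9478, plus strand: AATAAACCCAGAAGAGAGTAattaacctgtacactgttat
mt-Tl2 to mt-Nd5, chrM:11722-11761, plus strand: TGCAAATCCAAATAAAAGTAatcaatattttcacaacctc
mt-Te to mt-Nd6, chrM:14051-14090, minus strand: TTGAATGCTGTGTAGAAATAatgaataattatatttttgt

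mt-Co1, mt-Co3 and mt-Cytb had no tRNA of their own strand directly before them. 2 of the 11 mRNA features each stand for a pair of overlapping reading frames on 1 transcript, mt-Atp8_6 for mt-Atp8 and mt-Atp6 and mt-Nd4l_4 for mt-Nd4l and mt-Nd4. The end of mt-Atp8_6 also overlaps the start of mt-Co3 with no tRNA between them. The bases that both genes of a pair share are in capitals in these stretches of GRCm38, so a read that lies within them belongs to both.
mt-Atp8 and mt-Atp6, chrM:7912-7984, plus strand: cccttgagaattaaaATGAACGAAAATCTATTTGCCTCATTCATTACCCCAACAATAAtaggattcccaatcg
mt-Nd4l and mt-Nd4, chrM:10152-10188, plus strand: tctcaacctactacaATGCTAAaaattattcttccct
mt-Atp6 and mt-Co3, chrM:8592-8622, plus strand: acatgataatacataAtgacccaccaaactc

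The libraries held 9380174 to 14830104 reads, recovered from the deposited normalized counts, and the 4 tables each compared 1 line with WT-TRAMP of the same age. These reads are whole-number estimates that depend on the table, not direct counts of reads. The widest exact (Clopper-Pearson) 95% interval of a library's mitochondrial share spanned 0.0313 percentage points, and intervals and floors here cover counting error only. Elac2, the targeted gene, stood at 301, 262 and 254 normalized counts in KO-TRAMP and 359, 289 and 307 in WT-TRAMP at 10 weeks, and at 249, 268 and 251 against 251, 320 and 310 at 30 weeks. Its log2 fold changes were −0.22 and −0.19, with limma adjusted p = 0.808 and 0.522. A count over the whole gene includes the exons that the deletion leaves and the cells without Cre, so it does not check the genotype.

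Several libraries stood apart. Library 18 lay between libraries 16 and 17 of its group for 98.5% of the 2571 features that differed more than 2-fold between those 2, and library 12 lay between libraries 10 and 11 for 95.7% of 842 such features. In the other libraries this share ran from 5.35% to 88.4%. A weighted sum of 40% of library 16 and the rest of library 17 matched library 18 with a root mean square residual of 0.256 on the log2 scale, and the value for library 12, from 45% of library 10, was 0.431, against 0.957 to 4.19 for all other libraries. The labels give both as separate mice, and what places them between the others was not tested; for KO-TRAMP at 30 weeks, the calls, fold changes, ratios, rRNA share and order of levels are also given without both. Markers of the tissue also moved. The 10 markers of luminal secretory prostate epithelium held 0.210% of reads in library 5 and 1.70% to 3.40% in libraries 4 and 6. Over the same 10 markers the mean log2 level was 10.8 in libraries 4 and 5 and 12.3 in library 6. In A537T-TRAMP at 10 weeks 6 of the 10 were higher in mean, so the summed share does not stand for each marker. The 8 seminal vesicle markers, of a gland dissected away from the lobes, held 9.05% of reads in library 5, 1.25% in library 6 and 0.0487% in library 4. At 30 weeks the luminal markers held 0.240% to 0.3998% of reads in every library, and the seminal vesicle markers from 0.000106% in library 11 to 5.45% in library 13.

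Of the mitochondrial features, the 13 mRNAs and rRNAs passed the filter of a mean of at least 10 normalized counts in all 4 tables, and none of the 22 tRNAs did. 18 tRNAs were listed at 0 in every library. mt-Te, mt-Tm, mt-Ts1 and mt-Ty had at most 1 read in a library, and only 10 of the 396 pairs of a tRNA and a library had a read. A count of 0 allows a share of up to 2.02e-05% to 3.20e-05% of a library's reads, depending on its depth. The tRNAs that ELAC2 acts on directly were therefore not measurable, and all results below concern the transcripts that lie between them. A count per feature does not separate cut RNA from uncut precursors, so cleavage itself was not measured.

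The mitochondrial genome gave 3.27% to 8.02% of the reads of a library, and most of these came from the 2 rRNAs. In WT-TRAMP of the KO-TRAMP tables the mitochondrial share was 5.98%, 5.51% and 4.64% in libraries 1 to 3 and 3.996%, 4.86% and 4.32% in libraries 10 to 12. In the A537T-TRAMP tables the same libraries gave 5.80%, 5.34% and 4.49%, and 3.94%, 4.79% and 4.26%. These shares thus moved between tables by more than the counting interval. In KO-TRAMP it was 3.75%, 6.23% and 5.22% in libraries 7 to 9 and 4.14%, 3.39% and 3.73% in libraries 16 to 18. In A537T-TRAMP it was 3.27%, 8.02% and 5.54% in libraries 4 to 6 and 3.47%, 4.68% and 3.39% in libraries 13 to 15. Every mutant group overlapped its WT-TRAMP group in this share. In bulk tissue, fewer cells rich in mitochondria and less mitochondrial RNA per cell cannot be told apart.

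**Figure D1:**
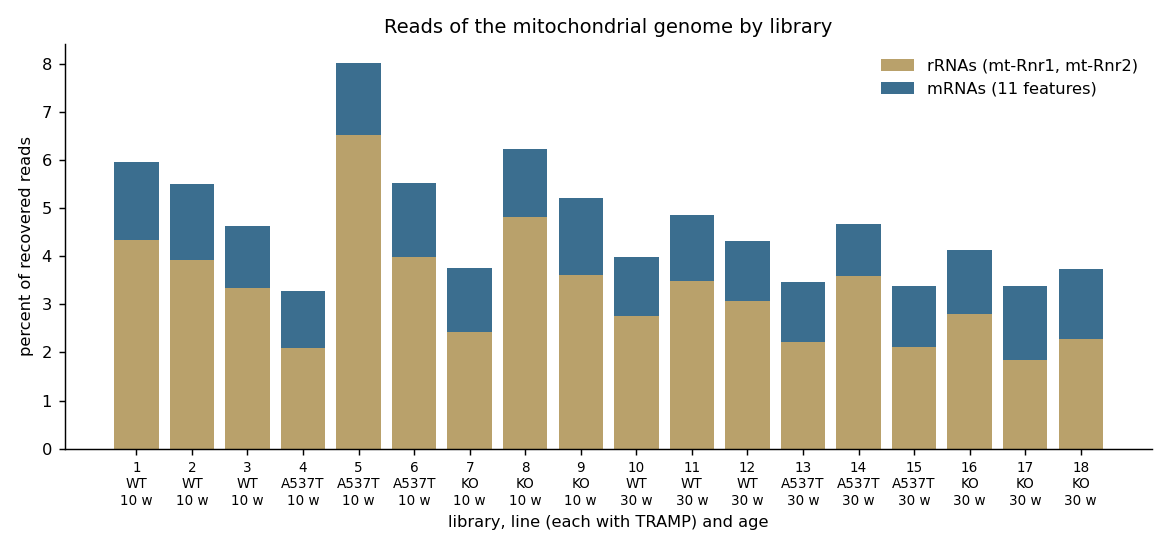
Share of the recovered reads of each of the 18 libraries that came from the mitochondrial genome (y axis, percent), with the rRNAs and the 11 mRNA features stacked, and WT-TRAMP taken from its KO-TRAMP tables. The bars run from 3.27% in library 4 to 8.02% in library 5, both of A537T-TRAMP at 10 weeks, and it is the rRNA segment that varies most.

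The mRNA segment varied less than the rRNA segment. The mRNA features held 1.07% to 1.63% of all reads over the 18 libraries. The rRNAs held 71.2% to 72.8% of the mitochondrial reads in WT-TRAMP at 10 weeks, against 64.5%, 77.4% and 69.1% in KO-TRAMP libraries 7 to 9. In the A537T-TRAMP table they held 71.4% to 73.1% in WT-TRAMP, against 63.7%, 81.4% and 72.2% in libraries 4 to 6. Both mutant groups thus spanned the WT-TRAMP range on either side. At 30 weeks the values were 69.1%, 71.9% and 70.9% in WT-TRAMP and 67.5%, 54.3% and 61.4% in KO-TRAMP. The A537T-TRAMP table gave 69.2%, 72.0% and 71.0% in WT-TRAMP and 64.1%, 77.0% and 62.3% in A537T-TRAMP. The 3 KO-TRAMP libraries at 30 weeks all lay below the lowest WT-TRAMP library, with a mean of 61.1% ± 6.62 against 70.7% ± 1.46 (SD, n = 3 each). Without libraries 12 and 18 the means were 60.9% and 70.5%, and leaving out libraries cannot create an overlap.

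Levels were compared between transcripts as normalized counts per kb. In WT-TRAMP the order from high to low was mt-Rnr2, mt-Rnr1, mt-Co1, mt-Co3, mt-Co2, mt-Atp8_6, mt-Cytb, mt-Nd1, mt-Nd3, mt-Nd4l_4, mt-Nd5, mt-Nd2 and mt-Nd6, and it was the same at 10 and 30 weeks in the KO-TRAMP tables. In the A537T-TRAMP table at 30 weeks the WT-TRAMP mean of mt-Nd1 stood just above that of mt-Cytb, with overlapping ranges. mt-Rnr2, the large ribosomal RNA, stood at a mean of 246661 normalized counts per kb at 10 weeks and mt-Rnr1, the small one, at 62989. The mRNAs of complex IV came next, with mt-Co1 at 50374, mt-Co3 at 36648 and mt-Co2 at 25708, and mt-Atp8_6 of ATP synthase followed at 15592. mt-Cytb, the complex III subunit, was at 8531. The mRNAs of complex I, the NADH dehydrogenase, filled the lower end, from mt-Nd1 at 7979 and mt-Nd3 at 7307 through mt-Nd4l_4 at 4977, mt-Nd5 at 3319 and mt-Nd2 at 2234 to mt-Nd6 at 1281, the only mRNA of the light strand. At 10 weeks the ranges of the 3 libraries overlapped between mt-Rnr1 and mt-Co1, mt-Cytb and mt-Nd1, and mt-Nd1 and mt-Nd3, so these neighbours did not differ beyond their spread. At 30 weeks the ranges overlapped for mt-Rnr1 and mt-Co1, mt-Cytb and mt-Nd1, and mt-Nd5 and mt-Nd2. Within every WT-TRAMP library of the KO-TRAMP tables, however, mt-Rnr1 stood above mt-Co1. In KO-TRAMP at 30 weeks the order of the means differed: mt-Co1, at 47644, and mt-Co3 stood above mt-Rnr1, at 30610, and mt-Nd3 stood above mt-Nd1 and mt-Cytb. The highest library of mt-Rnr1, at 45687, was above the lowest of mt-Co1, at 43908. Both values were of library 16, and in libraries 17 and 18 mt-Co1 stood above mt-Rnr1. The ranges of mt-Rnr1 and mt-Co3, mt-Nd3 and mt-Nd1, and mt-Nd1 and mt-Cytb also overlapped. The differences in order were not tested. Without libraries 12 and 18 the means of both groups kept this order.

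**Figure D2:**
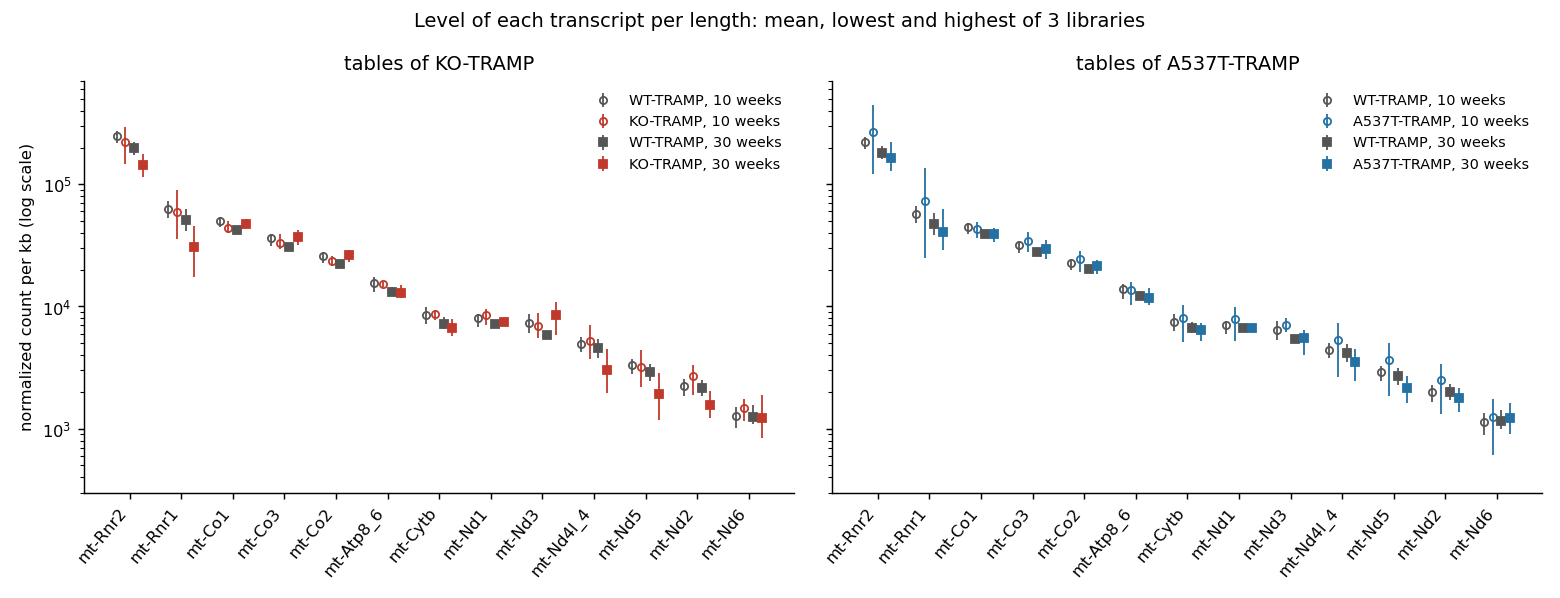
Level of the 13 measured mitochondrial transcripts per length (y axis, normalized count per kb, log scale), as the mean of 3 libraries with a line from the lowest to the highest, with the KO-TRAMP tables on the left and the A537T-TRAMP tables on the right. Levels fall from mt-Rnr2 at 246661 to mt-Nd6 at 1281 in WT-TRAMP at 10 weeks, and the lines of the mutant groups are longer than those of WT-TRAMP for mt-Rnr1, mt-Nd4l_4 and mt-Nd5.

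The mutant groups varied more among themselves than WT-TRAMP did. The median over the 13 transcripts of the SD of log2 values was 0.20 in WT-TRAMP and 0.30 in KO-TRAMP at 10 weeks, and 0.16 and 0.31 at 30 weeks. In A537T-TRAMP it was 0.53 at 10 weeks and 0.33 at 30 weeks, against 0.21 and 0.16 in WT-TRAMP of the same tables. The transcripts share a library, so these are descriptions of 3 libraries each and were not tested.

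At 10 weeks the mitochondrial transcripts of KO-TRAMP lay around those of WT-TRAMP. Of the 13 measured, 5 were higher and 8 lower in mean, with log2 fold changes from −0.21 for mt-Rnr2 to 0.24 for mt-Nd2 and a median of −0.10, beside −0.01 over all features. None passed the threshold of an adjusted p of 0.05 in limma (smallest adjusted p = 0.850), 0 of 13 reached an unadjusted p under 0.05, and the groups overlapped for all 13. Over all 15451 features tested, 0.0129% were called, 6.64% had an unadjusted p under 0.05 and 12.0% did not overlap. edgeR and DESeq2 also called 0 of the 13, with 0 at an unadjusted p under 0.05 in either.

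The means hid opposite libraries. mt-Rnr1 stood at 33754, 85028 and 49801 normalized counts in KO-TRAMP libraries 7 to 9 and at 69841, 59659 and 50963 in WT-TRAMP libraries 1 to 3. mt-Nd5, a core subunit of complex I, stood at 3990, 8041 and 5495 against 6748, 6280 and 5133. For both, library 7 was the lowest and library 8 the highest of the 6. mt-Nd3, a small complex I subunit, stood at 2190, 1931 and 3052 against 2486, 3013 and 2130, with library 8 the lowest. mt-Nd2, also of complex I, stood at 1942, 3447 and 3007 against 2641, 2396 and 1919 (log2 fold change 0.24, SE 0.22, adjusted p = 0.875 by limma). mt-Nd6 stood at 812, 903 and 603 against 784, 682 and 527 (log2 fold change 0.21, SE 0.19, adjusted p = 0.876 by limma). Libraries 7 and 8 were above all WT-TRAMP libraries for mt-Nd6, and 8 and 9 were for mt-Nd2, while the third KO-TRAMP library lay within the WT-TRAMP range. The complex IV mRNAs were lower in mean, mt-Co1 at 65332, 62006 and 77448 against 80671, 84025 and 68786 (log2 fold change −0.19, SE 0.15, limma adjusted p = 0.850), with overlap. Tissue markers also differed between these groups. The luminal markers held 1.46%, 1.33% and 1.35% of reads in libraries 7 to 9 against 2.62%, 3.01% and 2.28% in WT-TRAMP, although 6 of the 10 were higher in mean. The seminal vesicle markers held 0.000906%, 0.0522% and 1.63% against at most 0.000459% in WT-TRAMP. limma called 0 markers of either list, and their part in the result was not tested.

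**Figure D3:**
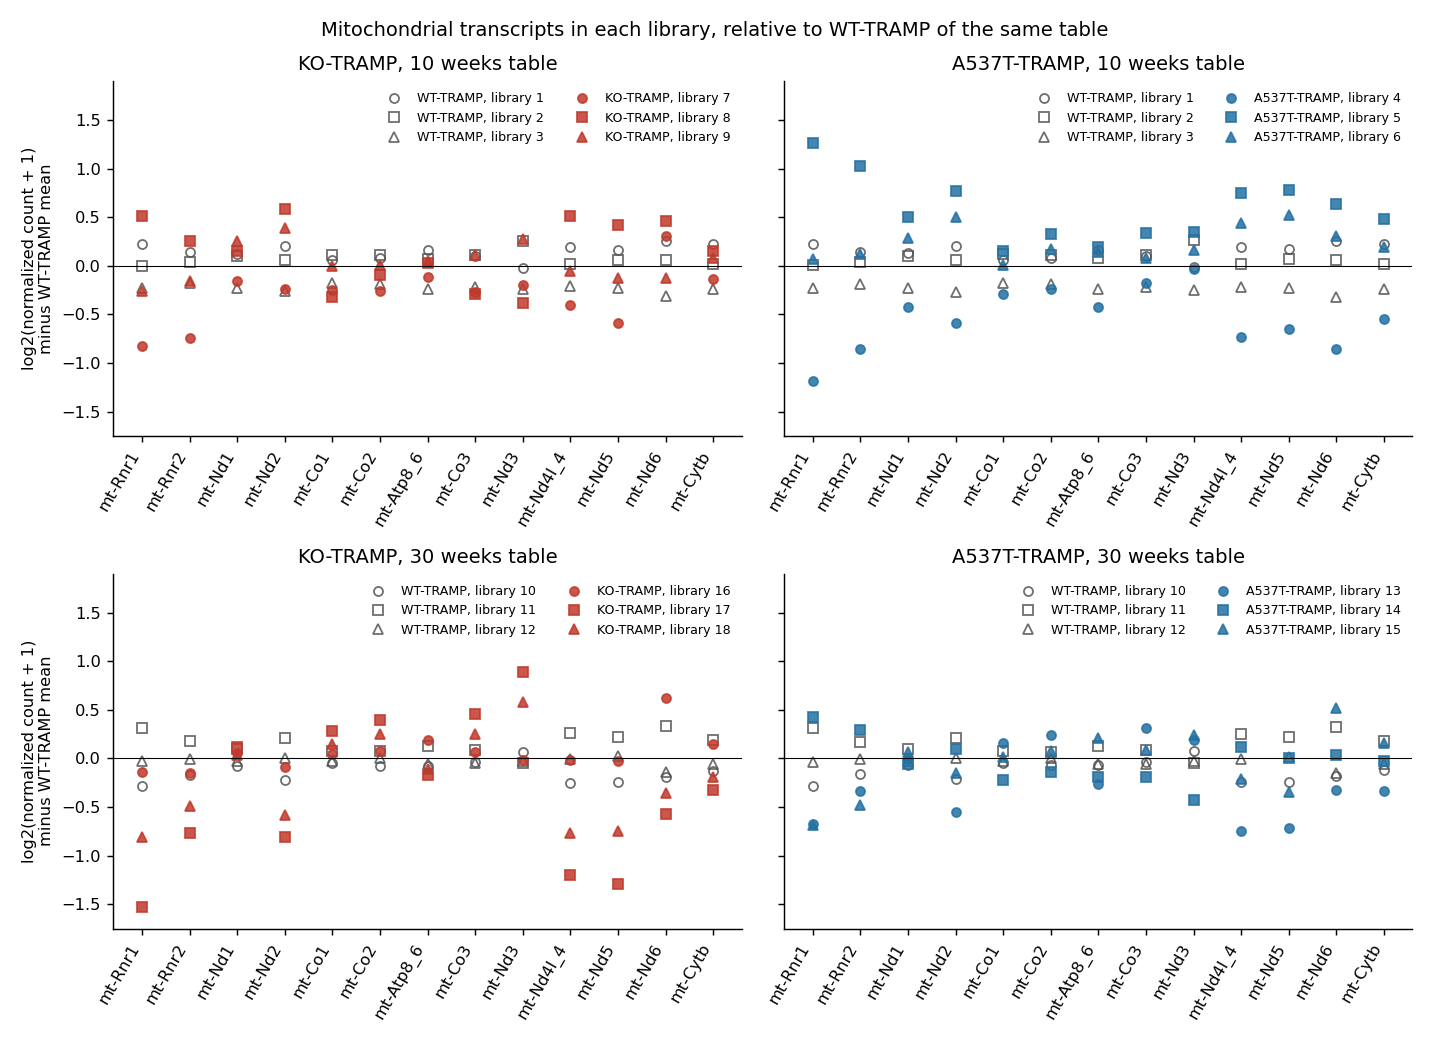
Each of the 13 measured mitochondrial transcripts in each library, as log2(normalized count + 1) minus the WT-TRAMP mean of the same table (y axis), with 1 panel per table and 1 symbol per library. Library 17 runs from −1.53 for mt-Rnr1 to 0.89 for mt-Nd3, and in A537T-TRAMP at 10 weeks library 5 lies above and library 4 below zero for every transcript.

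In A537T-TRAMP at 10 weeks, 11 of the 13 transcripts were higher and 2 lower in mean, with log2 fold changes from −0.04 for mt-Co1 to 0.23 for mt-Nd2 and a median of 0.08, beside −0.01 over all features. No transcript passed the limma threshold (smallest adjusted p = 0.756), 0 of 13 reached an unadjusted p under 0.05, and all groups overlapped. Among the 15438 features tested, 0.00648% were called, 7.89% had an unadjusted p under 0.05 and 13.4% did not overlap. edgeR and DESeq2 called 0 of the 13, with 0 at an unadjusted p under 0.05.

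Libraries 5 and 6 lay above the WT-TRAMP mean for all 13 transcripts and library 4 below it for all 13. Library 5 was the highest of the 6 for all 13 transcripts and library 4 the lowest for 11, the exceptions being mt-Co3 and mt-Nd3. mt-Rnr1 stood at 23690, 128645 and 56286 in libraries 4 to 6 and at 62995, 53882 and 45775 in WT-TRAMP, a 5.43-fold range within the group. mt-Rnr2 stood at 191351, 706296 and 376987 against 383009, 357759 and 305178. mt-Nd5 stood at 3369, 9108 and 7594 against 5948, 5543 and 4506, and mt-Nd4l_4, which encodes 2 complex I subunits, at 4390, 12215 and 9931 against 8339, 7407 and 6288. The complex IV mRNA mt-Co1 varied far less, at 56212, 76005 and 69203 against 71494, 74565 and 60704. Library 5, highest in mitochondrial RNA, was also the one with 9.05% of its reads on seminal vesicle markers; the part of that tissue in the result was not tested. Without library 4, all 13 transcripts were higher than WT-TRAMP with a median of 0.39, and mt-Nd2 (0.64), mt-Nd5 (0.65) and mt-Nd4l_4 (0.59) had an unadjusted p under 0.05, beside 22.3% of all features, with no transcript called (smallest limma adjusted p = 0.138). Without library 5, only 1 of 13 was higher and the median was −0.14.

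KO-TRAMP at 30 weeks had the widest range of log2 fold changes of the 4 comparisons, on both sides of zero, and none passed the test. The 2 rRNAs and mt-Nd2, mt-Nd4l_4 and mt-Nd5 of complex I had log2 fold changes from −0.82 to −0.47, while mt-Nd3 and the complex IV mRNAs had values from 0.16 to 0.48. mt-Nd1, mt-Atp8_6, mt-Nd6 and mt-Cytb lay between −0.12 and 0.07. In all, 5 were higher and 8 lower, with a median of −0.10 beside 0.01 over all features. limma called 0 of 13 (smallest adjusted p = 0.378) with 0 at an unadjusted p under 0.05. Of 16900 features tested 0.213% were called, 13.5% had an unadjusted p under 0.05 and 20.2% did not overlap. edgeR also called 0 with 0 at an unadjusted p under 0.05, and DESeq2 called 0 with 4 at an unadjusted p under 0.05, beside 18.4% of all features by that tool.

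**Figure D4:**
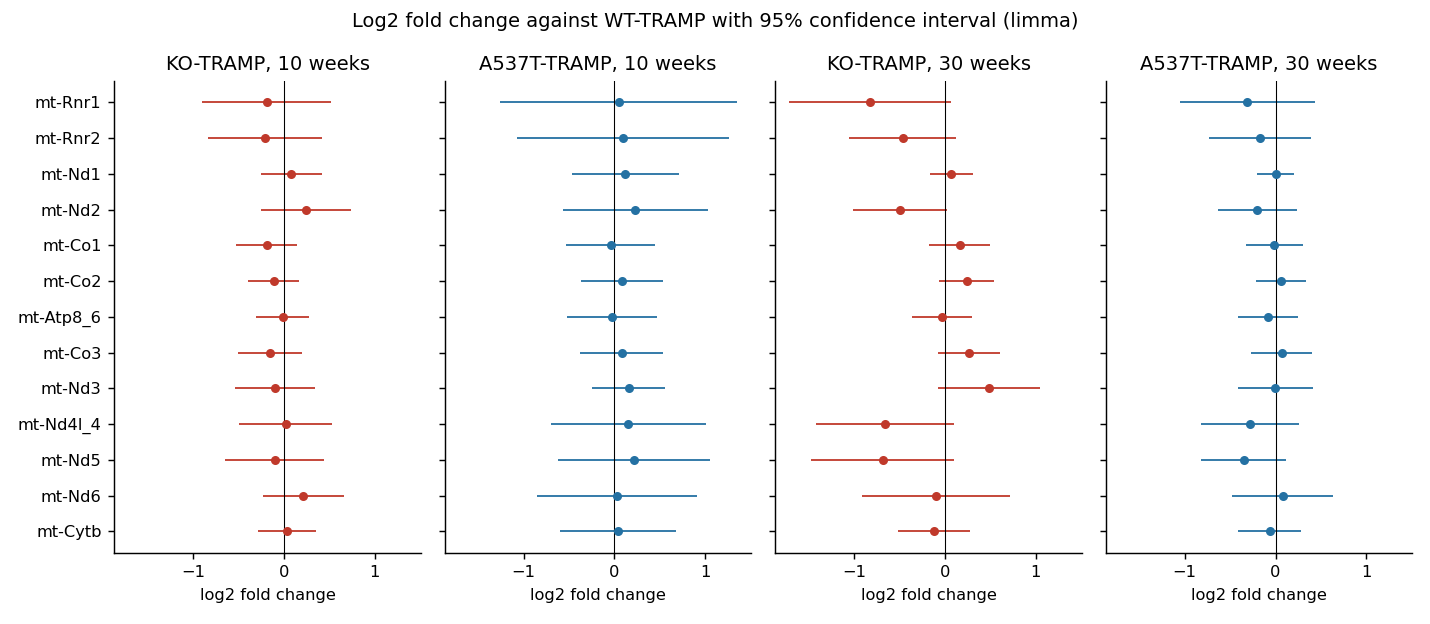
Log2 fold change of each of the 13 measured mitochondrial transcripts against WT-TRAMP in the 4 comparisons (x axis), with 95% confidence intervals from limma. All intervals include zero, and the estimates spread from −0.82 for mt-Rnr1 to 0.48 for mt-Nd3 in KO-TRAMP at 30 weeks.

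Among the transcripts with lower means, mt-Rnr1 stood at 43631, 16631 and 27435 normalized counts in KO-TRAMP libraries 16 to 18 and at 39275, 59659 and 47014 in WT-TRAMP libraries 10 to 12. Its mean was 60.1% of WT-TRAMP (log2 fold change −0.82, SE 0.37, limma adjusted p = 0.383). Libraries 17 and 18 lay below every WT-TRAMP library and library 16 within their range. mt-Rnr2 followed the same order at 279242, 182383 and 221818 against 275708, 350592 and 308878, 73.1% of WT-TRAMP (log2 fold change −0.47, SE 0.24, limma adjusted p = 0.414). mt-Nd5 stood at 5201, 2164 and 3163 against 4464, 6187 and 5376, 65.7% of WT-TRAMP (log2 fold change −0.69, SE 0.32, limma adjusted p = 0.394). mt-Nd4l_4 stood at 7430, 3273 and 4406 against 6300, 8962 and 7464, 66.5% of WT-TRAMP (log2 fold change −0.66, SE 0.31, limma adjusted p = 0.396). In each of these, library 16 lay within the WT-TRAMP range and libraries 17 and 18 below it. mt-Nd2 stood at 2100, 1274 and 1488 against 1916, 2590 and 2247, 72.0% of WT-TRAMP (log2 fold change −0.49, SE 0.21, limma adjusted p = 0.378), again with libraries 17 and 18 below all WT-TRAMP libraries.

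Among those with higher means, mt-Nd3 stood at 2022, 3800 and 3047 against 2146, 1979 and 2011, 145% of WT-TRAMP (log2 fold change 0.48, SE 0.23, limma adjusted p = 0.397). The complex IV mRNAs were mt-Co1 at 67838, 80106 and 72885 against 63492, 69279 and 64611, mt-Co2 at 15908, 19896 and 18027 against 14342, 15902 and 15151, and mt-Co3 at 25022, 32842 and 28531 against 23225, 25466 and 23058. Their means were 112%, 119% and 120% of WT-TRAMP, with limma adjusted p of 0.572, 0.411 and 0.423. mt-Co2 was the 1 transcript of 13 whose groups did not overlap, by 15908 in library 16 against 15902 in library 11. mt-Nd3 and mt-Nd5 both follow a tRNA with no base between, mt-Tg and mt-Tl2 in the sequences above. Their log2 fold changes lay on opposite sides of zero, at 0.48 and −0.69. Where a tRNA lay directly before the transcript, the 10 log2 fold changes had a median of −0.28 and ran from −0.82 to 0.48 with 3 above zero. The 3 transcripts without one had a median of 0.16, from −0.12 to 0.26, with 2 above zero. At 10 weeks the same medians for KO-TRAMP were −0.06 and −0.15, so the order was the other way round. For A537T-TRAMP they were 0.11 and 0.04 at 10 weeks, and −0.13 and −0.02 at 30 weeks. The order in A537T-TRAMP thus also differed between the ages, and no grouping was tested.

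The 2 libraries that set the means apart differed from library 16 in more than mitochondrial RNA. The 8 neuroendocrine markers held 0.149% and 0.0929% of reads in libraries 17 and 18, with a read for 8 of 8, against 4 reads in all in library 16, where Snap25, Chgb, Scg3 and Scg2 were at 0. In WT-TRAMP they held 0.0133%, 3.27e-05% and 0.00624% in libraries 10 to 12. The 7 smooth muscle markers held 0.0643%, 0.338% and 0.232% in libraries 16 to 18 against 0.126% to 0.220% in WT-TRAMP, and the 4 basal markers 0.00276%, 0.0215% and 0.0150% against 0.00316% to 0.00340%. The seminal vesicle markers held 0.266%, 0.000695% and 0.106% in libraries 16 to 18 against 4.35%, 0.000106% and 1.901% in WT-TRAMP. Other lists moved with the group as a whole. The 6 macrophage markers were all higher in mean in KO-TRAMP with 2 called by limma, beside 0.213% of all features, and held 0.0307%, 0.0282% and 0.0305% of reads in libraries 16 to 18 against 0.0129%, 0.00981% and 0.0106% in WT-TRAMP. Of the 6 skeletal muscle markers 5 were higher, 2 of them called, at 0.00453%, 0.00893% and 0.00723% against 0.00512%, 0.00321% and 0.00408%. The 6 adipose markers were all lower, 1 of them called, at 0.000436%, 0.00442% and 0.00292% against 0.00369%, 0.0115% and 0.00789%. The 4 endothelial markers were all higher and had an unadjusted p under 0.05, as did 7 of the 10 luminal markers, whose median log2 fold change was −0.90, with 0 called in either list. The part of these cells in the result was not tested. Without library 16, limma called 5 of the 13 transcripts, beside 18.1% of all features. mt-Nd3 was then higher (log2 fold change 0.74, adjusted p = 0.022), and mt-Nd4l_4 (−0.98, adjusted p = 0.032), mt-Nd5 (−1.02, adjusted p = 0.034), mt-Nd2 (−0.70, adjusted p = 0.038) and mt-Rnr1 (−1.17, adjusted p = 0.043) were lower. That fit rests on libraries 17 and 18, and library 18 lay between 16 and 17 for 12 of the 13 transcripts. With libraries 12 and 18 both left out, 0 of 13 were called, with 0 of 16889 features in all, and the log2 fold changes of these 5 were 0.43, −0.61, −0.65, −0.45 and −0.85 (smallest limma adjusted p = 0.986). edgeR and DESeq2 also called 0 of the 13 without both, with 0 and 71 features in all, and 0 of 13 had an unadjusted p under 0.05 in any of these fits.

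In A537T-TRAMP at 30 weeks, 4 transcripts were higher and 9 lower in mean, with log2 fold changes from −0.35 for mt-Nd5 to 0.08 for mt-Nd6 and a median of −0.06, beside 0.00 over all features. limma called 0 of 13 (smallest adjusted p = 0.740) with 0 at an unadjusted p under 0.05, and all groups overlapped. Among 16261 features 0% were called, 7.21% had an unadjusted p under 0.05 and 13.4% did not overlap. edgeR and DESeq2 called 0 of the 13, with 0 at an unadjusted p under 0.05.

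Here too the libraries of the group differed from each other. mt-Rnr1 stood at 28107, 59949 and 27754 in libraries 13 to 15 and at 36855, 55552 and 43794 in WT-TRAMP, so that libraries 13 and 15 lay below and library 14 above every WT-TRAMP library. mt-Nd5 stood at 2967, 4919 and 3853 against 4142, 5697 and 4952, and mt-Nd4l_4 at 4096, 7471 and 5961 against 5810, 8201 and 6833. Library 13 was the lowest of the 6 for both. It was also the highest for mt-Co3, at 27374 against 19300 and 23337 in the other A537T-TRAMP libraries and 21535, 23432 and 21223 in WT-TRAMP. mt-Nd6 stood at 469, 605 and 846 against 520, 739 and 532, with library 15 the highest. Library 13 held 5.45% and library 15 2.65% of reads on seminal vesicle markers and library 14 0.000313%, against 4.25%, 0.000106% and 1.85% in WT-TRAMP libraries 10 to 12 of this table; the part of that tissue in the result was not tested.

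The change of each effect with age was tested by the difference of the log2 fold changes at 30 and 10 weeks. In KO-TRAMP, 0 of 13 transcripts passed (smallest limma adjusted p = 0.383), 0 had an unadjusted p under 0.05 and edgeR called 0, with 0% of 16431 features called and 13.1% at an unadjusted p under 0.05. The difference was −0.74 for mt-Nd2 (SE 0.34) and 0.59 for mt-Nd3 (SE 0.32, limma adjusted p = 0.447), and 0.35, 0.36 and 0.41 for mt-Co1, mt-Co2 and mt-Co3. Without libraries 12 and 18, 0 of 13 passed (smallest limma adjusted p = 0.794), and the differences were −0.69 for mt-Nd2 and 0.53 for mt-Nd3. In A537T-TRAMP, 0 of 13 passed (smallest limma adjusted p = 0.737), with 0 at an unadjusted p under 0.05 and 0 in edgeR, beside 0% of 15941 features called and 6.36% at an unadjusted p under 0.05. The 2 lines share their WT-TRAMP libraries and were not compared with each other.

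Ratios of 2 transcripts within a library do not depend on how libraries were scaled. Of the 16 tests of 4 ratios in the 4 tables, none could reach p = 0.05, since 3 against 3 libraries allow no exact permutation p under 0.1, and none passed after adjustment (smallest adjusted p = 0.533). Separate groups were also common among single features, at 12.0% to 20.2% of those tested, with the top share in the older KO-TRAMP table. Such a share was not computed for ratios of other features, so the ratios have no direct background. Of the 16 ratio tests, 3 reached the smallest two-sided exact p of 0.1, which means that their groups did not overlap. The first was mt-Nd6 to mt-Nd5, the light strand mRNA over its neighbour on the heavy strand, in KO-TRAMP at 30 weeks, at 0.190, 0.199 and 0.158 against 0.126, 0.130 and 0.108 in WT-TRAMP. The means were 0.182 ± 0.022 and 0.121 ± 0.012 (SD, n = 3 each), a log2 difference of 0.58, with all KO-TRAMP libraries above all WT-TRAMP libraries. The second was mt-Nd1 to mt-Rnr2, the mRNA and the rRNA on either side of mt-Tl1, in the same table, at 0.026, 0.041 and 0.032 against 0.024, 0.021 and 0.022, a log2 difference of 0.54. Without libraries 12 and 18 the log2 differences of this pair of ratios were 0.602 and 0.540. Leaving out libraries cannot make separate groups overlap, so only the sizes of the differences are given. The third was mt-Nd6 to mt-Nd5 in A537T-TRAMP at 10 weeks, lower at 0.096 ± 0.003 against 0.109 ± 0.007 (SD, n = 3 each), a log2 difference of −0.19. The ratio of the rRNAs to each other, mt-Rnr1 to mt-Rnr2, which are cut apart at mt-Tv, had exact p from 0.3 to 1.0, and mt-Co3 to mt-Atp8_6, which no tRNA separates, from 0.4 to 0.9. In KO-TRAMP at 30 weeks the latter stood at 2.69 ± 0.68 against 2.15 ± 0.05 (SD, n = 3 each). Because a count per feature includes uncut precursors, none of these ratios measures cleavage.

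**Figure D5:**
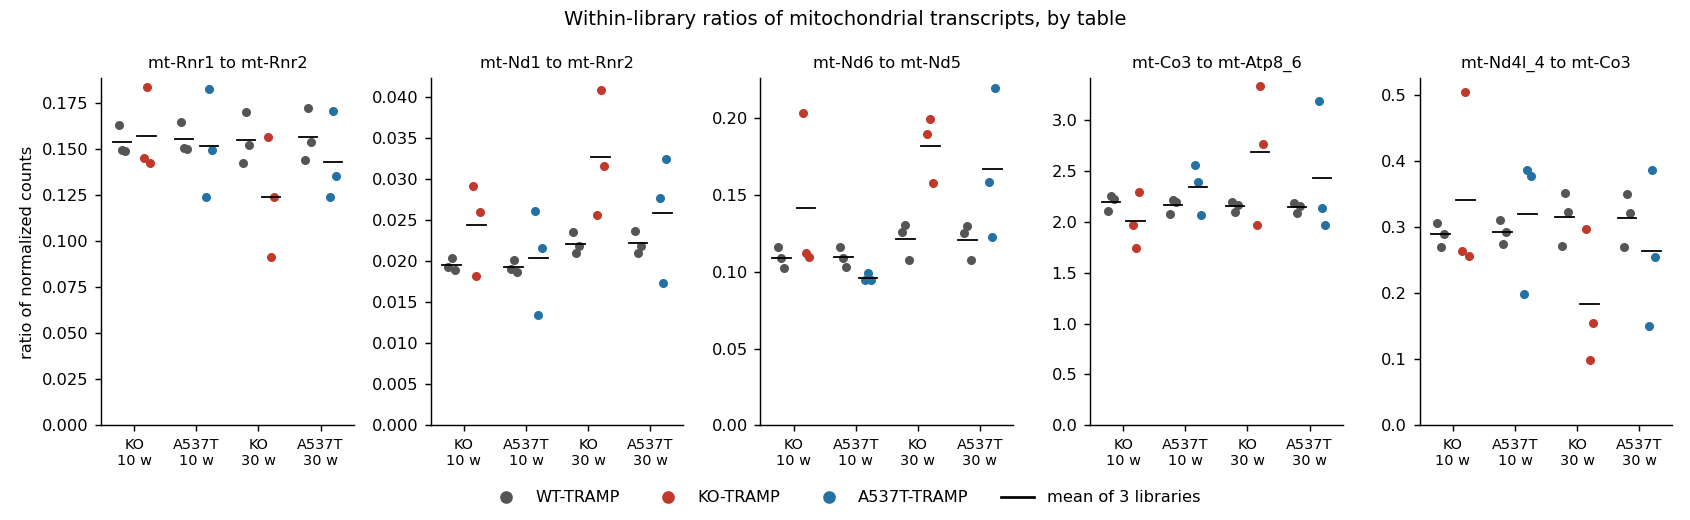
Ratios of the normalized counts of 2 mitochondrial transcripts within each library (y axis, from zero), with 1 point per library, a bar at the mean of 3 libraries and WT-TRAMP beside each mutant line in its table. The WT-TRAMP points lie close together in every panel, and the KO-TRAMP points at 30 weeks lie above them for mt-Nd6 to mt-Nd5 (0.158 to 0.199 against 0.108 to 0.130); the last panel was chosen after the values were seen and was not tested.

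The composition of the mitochondrial mRNAs set single libraries apart. mt-Co1 held 38.7% to 47.8% of the mitochondrial mRNA reads over all libraries, and mt-Nd4l_4 1.95% to 7.34%. For mt-Nd4l_4 the highest share was in library 8 (KO-TRAMP, 10 weeks) and the lowest in library 17 (KO-TRAMP, 30 weeks), with libraries 18 and 13 next at 2.81% and 2.86%, while WT-TRAMP lay between 4.45% and 5.60%. mt-Nd5 gave the same extremes, 5.02% in library 8 and 1.29% in library 17, against 3.17% to 3.88% in WT-TRAMP. Each of these transcripts thus reached both ends of its range in KO-TRAMP, at different ages.

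The nuclear genes that transcribe, cut and stabilise mitochondrial RNA were read from the same fits in 3 lists. Of 16 genes of mitochondrial DNA maintenance and transcription, 5 of RNA cleavage and 20 of RNA stability, polyadenylation and decay, 0 passed the limma threshold in any of the 4 comparisons. The medians of their log2 fold changes were, in that order of the lists, 0.06, −0.04 and −0.09 for KO-TRAMP and 0.02, −0.03 and −0.05 for A537T-TRAMP at 10 weeks. At 30 weeks they were 0.01, 0.04 and 0.06 for KO-TRAMP and −0.13, 0.05 and 0.06 for A537T-TRAMP. Those with an unadjusted p under 0.05 numbered 1, 0 and 1 for KO-TRAMP and 1, 0 and 0 for A537T-TRAMP at 10 weeks, and 0, 0 and 2 for KO-TRAMP and 2, 0 and 0 for A537T-TRAMP at 30 weeks. Over all features tested the shares were 6.64% for KO-TRAMP and 7.89% for A537T-TRAMP among the younger mice, and 13.5% and 7.21% among the older, so the counts over the 3 lists together lay below the share over all features in each comparison. Polrmt, the mitochondrial RNA polymerase, was among them at 10 weeks in both lines, with log2 fold changes of 0.47 in KO-TRAMP (limma adjusted p = 0.742) and 0.59 in A537T-TRAMP (limma adjusted p = 0.600) against the same WT-TRAMP mice. Slirp, a partner of LRPPRC in mRNA stability, was at 0.39 in KO-TRAMP (limma adjusted p = 0.365) and Tfam, which packages mitochondrial DNA, at −0.45 in A537T-TRAMP (limma adjusted p = 0.673), both at 30 weeks. The others were Fastkd3, Grsf1 and Mterf3, named after their values were seen. The RNase P genes Trmt10c, Hsd17b10 and Prorp (listed as 1110008L16Rik) had log2 fold changes from −0.40 for Hsd17b10 in A537T-TRAMP at 10 weeks (limma adjusted p = 0.600) to 0.25 for Trmt10c in KO-TRAMP at 30 weeks (limma adjusted p = 0.445). Lrpprc, the main stabiliser of mitochondrial mRNAs, had values from 0.07 to 0.19.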

How the data were processed

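Total RNA was sequenced on a NovaSeq with a TruSeq protocol; whether rRNA was depleted or polyadenylated RNA was selected is not given in the sources used here, and the level of the rRNAs depends on it. Short RNAs such as tRNAs are largely lost in such libraries. The authors trimmed reads with Trim Galore 0.4.1 and cutadapt 1.18, aligned them with STAR 2.7.3a to GRCm38.p6 masked for nuclear copies of mitochondrial DNA, quantified with Salmon on a strand-aware setting against an annotation with custom mitochondrial features, and divided the gene estimates by size factors in DESeq2 1.26. The deposited values are thus a signal, normalized counts per gene, in 4 tables scaled separately, and levels were compared only within a table. Shares of reads and ratios were also set side by side across tables. Tables of the authors' own fold changes and p-values were not used.

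Whole numbers, called reads here, were recovered from the steps between low values. 100% of values lay within 0.01 of a whole number, and a library held 9380174 to 14830104 of these reads. Features with a mean of at least 10 were tested on log2(normalized count + 1) by limma 3.58.1 (lmFit, eBayes with trend, R 4.3.3), two-sided, with Benjamini-Hochberg adjustment over all features of the table at 0.05, in a fit of the 6 libraries of each table. This scale understates fold changes of low features, though the mitochondrial transcripts are far above the pseudocount. The difference between ages was an interaction in a fit of 12 libraries with an intercept per table. Ratios were tested by exact two-sided permutation of 3 against 3 libraries. edgeR 4.0.16 and DESeq2 1.42.0 on the recovered reads, other scalings, pseudocounts of 0.5 and 5, no filter, and each library left out were alternatives. Leaving out libraries 12 and 18 together (limma, edgeR, DESeq2, the age difference and the ratios), and the ratios of mt-Nd4l_4 or mt-Rnr1 to mt-Co3 and of mt-Nd5 to mt-Nd3, were added after the data had been seen. The scripts were tested on simulated data. The named genes were all mt- features, Elac2, and Polrmt, Tfam, Trmt10c, Hsd17b10, Prorp, Lrpprc and Slirp, plus any member of the 3 nuclear lists past the threshold. The members, the lists and the tests were chosen with earlier results of these data known. Replicates are separate mice by the labels; no 2 libraries of a group were alike within counting noise. The column headers give a library number but neither a group nor a replicate number. Columns found in both tables of an age were taken as WT-TRAMP, and those found in 1 table as its mutant line. The WT-TRAMP libraries occur in 2 tables each, in which 0 of the 13 mitochondrial transcripts had identical recovered reads, with differences of up to 5.63%. The recovered reads are thus estimates that depend on the table. The exact intervals, edgeR and DESeq2 treat these estimates as counts.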

Additional observations from a re-analysis of the deposited data

Results flagged for a closer look

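For mt-Co1 in KO-TRAMP, all 3 mutant libraries lay below the WT-TRAMP mean at 10 weeks and above it at 30 weeks. At 10 weeks the highest of them lay only just below, at 77448 normalized counts against a WT-TRAMP mean of 77827. The log2 fold change at 30 weeks minus that at 10 weeks was 0.35 (SE 0.20, limma adjusted p = 0.464), so the difference did not pass the test. For the ratio of mt-Nd6 to mt-Nd5 in A537T-TRAMP, all 3 mutant libraries lay below the WT-TRAMP mean at 10 weeks and above it at 30 weeks, and the log2 effects differed by 0.615; this difference was not tested. Groups of 3 libraries are too small for a test of single outlying libraries.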

How the results depend on the processing

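No mitochondrial transcript was called in any comparison by limma, edgeR or DESeq2 with all libraries, or with another pseudocount, filter or scaling, and the same held with each library left out except for KO-TRAMP at 30 weeks, where 0 to 5 were called (5 without library 16). Of 470 log2 fold changes of single transcripts under the other settings, with selected age differences among them, 22 changed sign. Of 372 with 1 library left out, 56 did, in 30 of 57 results. The ratios are not in these counts. All sign changes were of values that no test had called, and their causes were not tested. The number of all features called at 10 weeks was 2 in KO-TRAMP by limma, 0 by edgeR, 81 by DESeq2 and 1 to 9 with a library left out (9 without library 3). In A537T-TRAMP it was 1, with 0 by edgeR, 0 with a pseudocount of 0.5, 148 by DESeq2 and 0 to 65 with a library left out (65 without library 4). The 30 week number for KO-TRAMP was 36, with 15 by edgeR, 805 by DESeq2, 0, 0 and 71 by limma, edgeR and DESeq2 without libraries 12 and 18, a choice made after seeing the data, and 0 to 3064 with a library left out (3064 without library 16). For A537T-TRAMP that number was 0, with 165 by DESeq2 and 0 to 145 with a library left out (145 without library 11). With 1 library left out, 1 group has 2 libraries and the spread is pooled over both groups.

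Scaling, tool or libraries changed the sign of these log2 fold changes. With log2 CPM over non-mitochondrial reads and over all reads, mt-Atp8_6 in KO-TRAMP was 0.046 and 0.050 in the younger mice, and at 30 weeks 0.026 and 0.036. In A537T-TRAMP at 10 weeks, mt-Cytb was −0.027 and −0.034, mt-Nd6 −0.037 and −0.043, and mt-Rnr1 −0.020 and −0.026. At 30 weeks, mt-Nd1 was −0.066 and −0.059 and mt-Co2 −0.0076 and −0.00031. By edgeR, mt-Atp8_6 in A537T-TRAMP at 10 weeks was 0.0043, and at 30 weeks mt-Nd1 was −0.0055 and mt-Nd3 0.023. By DESeq2 the last pair was −0.0056 and 0.022, and mt-Nd1 with TMM scaling was −0.0046. Without libraries 12 and 18, mt-Nd6 in KO-TRAMP at 30 weeks was 0.056 by edgeR and 0.043 by DESeq2.

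Leaving out 1 library changed the sign of the following, given as the lowest to the highest log2 value. In KO-TRAMP at 10 weeks these were mt-Atp8_6 from −0.13 to 0.070, mt-Cytb −0.089 to 0.14, mt-Nd1 −0.030 to 0.20, mt-Nd3 −0.29 to 0.039, mt-Nd4l_4 −0.23 to 0.23, mt-Nd5 −0.36 to 0.14, mt-Rnr1 −0.54 to 0.13 and mt-Rnr2 −0.45 to 0.050. In A537T-TRAMP at 10 weeks these were mt-Atp8_6 from −0.15 to 0.17, mt-Co1 −0.14 to 0.079, mt-Co2 −0.037 to 0.25, mt-Co3 −0.051 to 0.21, mt-Cytb −0.18 to 0.34, mt-Nd1 −0.069 to 0.39, mt-Nd2 −0.041 to 0.64, mt-Nd4l_4 −0.14 to 0.59, mt-Nd5 −0.066 to 0.65, mt-Nd6 −0.27 to 0.47, mt-Rnr1 −0.56 to 0.66 and mt-Rnr2 −0.37 to 0.57. In KO-TRAMP at 30 weeks these were mt-Atp8_6 from −0.14 to 0.043 and mt-Nd6 −0.46 to 0.13. In A537T-TRAMP at 30 weeks these were mt-Atp8_6 from −0.22 to 0.0096, mt-Co1 −0.10 to 0.087, mt-Co2 −0.029 to 0.16, mt-Co3 −0.055 to 0.20, mt-Cytb −0.18 to 0.071, mt-Nd1 −0.032 to 0.049, mt-Nd3 −0.12 to 0.21 and mt-Nd6 −0.14 to 0.28. Among the ratios, mt-Rnr1 to mt-Rnr2 ran from −0.095 to 0.087 in KO-TRAMP and from −0.19 to 0.090 in A537T-TRAMP at 10 weeks, mt-Nd1 to mt-Rnr2 from −0.18 to 0.30 (10 weeks) and −0.013 to 0.44 (30 weeks) for A537T-TRAMP, and mt-Co3 to mt-Atp8_6 from −0.064 to 0.28 in A537T-TRAMP at 30 weeks.

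No paired analysis was possible because the columns of the tables carry no replicate number. The tRNAs had at most 1 read in a library. The parts of depth and of the loss of short RNAs in this were not tested. In simulated data made like KO-TRAMP at 30 weeks (16880 features), limma recovered 1% of 2-fold and 43% of 4-fold changes, and like KO-TRAMP at 10 weeks (15470 features) 52% and 100%. For A537T-TRAMP it recovered 11% and 79% at 10 weeks (15420 features) and 16% and 99% at 30 weeks (16290 features). For the difference between ages it recovered 0% and 15% in KO-TRAMP (16480 features) and 1% and 47% in A537T-TRAMP (15970 features). Every simulated feature of a table had the same relative spread, so these rates are not those of the mitochondrial transcripts. In KO-TRAMP at 30 weeks the SE of their log2 fold changes ran from 0.096 to 0.37.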

Other observations

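3 further ratios were computed after the values had been seen and are given without a test. mt-Nd4l_4 to mt-Co3 stood at 0.0996, 0.154 and 0.297 in KO-TRAMP libraries 17, 18 and 16, at 0.1496 in A537T-TRAMP library 13 and at 0.505 in KO-TRAMP library 8, against 0.270 to 0.352 in WT-TRAMP. mt-Rnr1 to mt-Co3 ran from 0.506 in library 17 to 4.06 in library 5, and mt-Nd5 to mt-Nd3 from 0.570 in library 17 to 4.16 in library 8. The lowest and the highest library of the last ratio thus came from the same line at different ages, and the WT-TRAMP libraries lay between them in all 3 ratios.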
